A study of Caenorhabditis elegans with 58 samples.

Results

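ceh-43 encodes a homeodomain transcription factor, the Distal-less homolog of Caenorhabditis elegans. Its values were taken from the row named ceh-43, which is 1 of 45410 entries in each count table, and were read in all 58 libraries. The gene was picked because its level was higher in mutant descendants than in control lines. Differences of ceh-43 between these lines, and between either of them and other lines, are therefore described here without a test. The comparisons of parental condition rest on libraries other than those of that rule and were tested. The gene and the tests were nevertheless chosen with earlier results of these data known, and the p-values are to be read with that limit. The change between generations within a set of lines was tested too. That contrast was not the basis of the choice, but in mutant descendants and control lines it uses the same libraries.

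All libraries were RNA-seq of whole mid-L4 animals. WT-ctrl lines came from a WT by WT cross, and WT-des and MUT-des lines were the wild-type and the homozygous mutant descendants of WT males crossed to set-2(zr1208) hermaphrodites, sampled at F3 and F5 and kept at 20°C. These outcross libraries numbered 4 WT-ctrl, 4 WT-des and 3 MUT-des in each generation, each of independent lines derived from a single cross. The other libraries, 4 per group, were WT or set-2(zr1208) progeny of 1-day-old adults (1DOA) or 4-day-old adults (F1-4DOA) at 20°C, WT or set-2(zr1208) animals grown at 25°C (F1-25°C), WT animals returned to 20°C for 1 generation (F1-back), and WT cross-progeny of 1-day-old males with 1-day-old or 4-day-old hermaphrodites. The set-2(zr1208) allele changes a single residue in the SET domain, the catalytic part of an H3K4 methyltransferase, and its strain was backcrossed to N2. The crossed hermaphrodites also carried the oyIs14 reporter, a GFP under the sra-6 promoter, and the crossed males of the age experiment carried it too. Such a mutation need not change the level of the transcript, and the set-2 entry held only 0 to 6 counts in every library, so set-2 expression gave no check of the labels.

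Distal-less proteins pattern the outgrowth of limbs and the head in many animals. In C. elegans, CEH-43 is required for the development of the anterior hypodermis, the epidermis of the head. With the ETS factor AST-1 and the Pbx factor CEH-20 it also acts as a terminal selector of dopaminergic neurons, switching on and maintaining the genes that make and transport dopamine.

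ceh-43 was read from few counts, which sets the precision of every value below. The outcross libraries in the fit held 14.1 to 25.7 M counts in all and 50 to 248 counts of ceh-43, and the other libraries held 2.82 to 31.5 M and 8 to 215. Among groups with 18 or more ceh-43 counts in every library, counting error alone gave a coefficient of variation between 7.12% and 18.6%. WT-ctrl F5 replicate 2 held 5 ceh-43 counts in a total of 1.27 M and was left out. The set-2 F1-4DOA replicate 3 library was the next shallowest, with 8 ceh-43 counts. Levels are given as CPM, the counts scaled to a library of 1 M with TMM factors, a scaling done within each of the 2 experiments, so levels are not compared across them. In whole animals, a change in the number of cells that express a gene and a change in RNA per cell cannot be told apart. The replicates are numbered as biological replicates, and p-values measure the spread between them.

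In wild-type animals ceh-43 was low. Over the 24 WT libraries of the parental-condition experiment it ran from 1.73 to 4.71 CPM, a 2.72-fold range, with a mean of 3.00 ± 0.694 CPM (SD, n = 24). In set-2(zr1208) animals it was higher, and 10 of the 12 set-2 libraries lay above the highest WT library. The remaining 2 were set-2 F1-4DOA replicate 3, at 2.78 CPM, and set-2 F1-25°C replicate 1, at 3.08 CPM. The mean over the 12 set-2 libraries was 6.07 ± 2.33 CPM (SD, n = 12), against 2.98 ± 0.468 CPM (n = 12) in the WT libraries of the same 3 conditions.

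**Figure D1:**
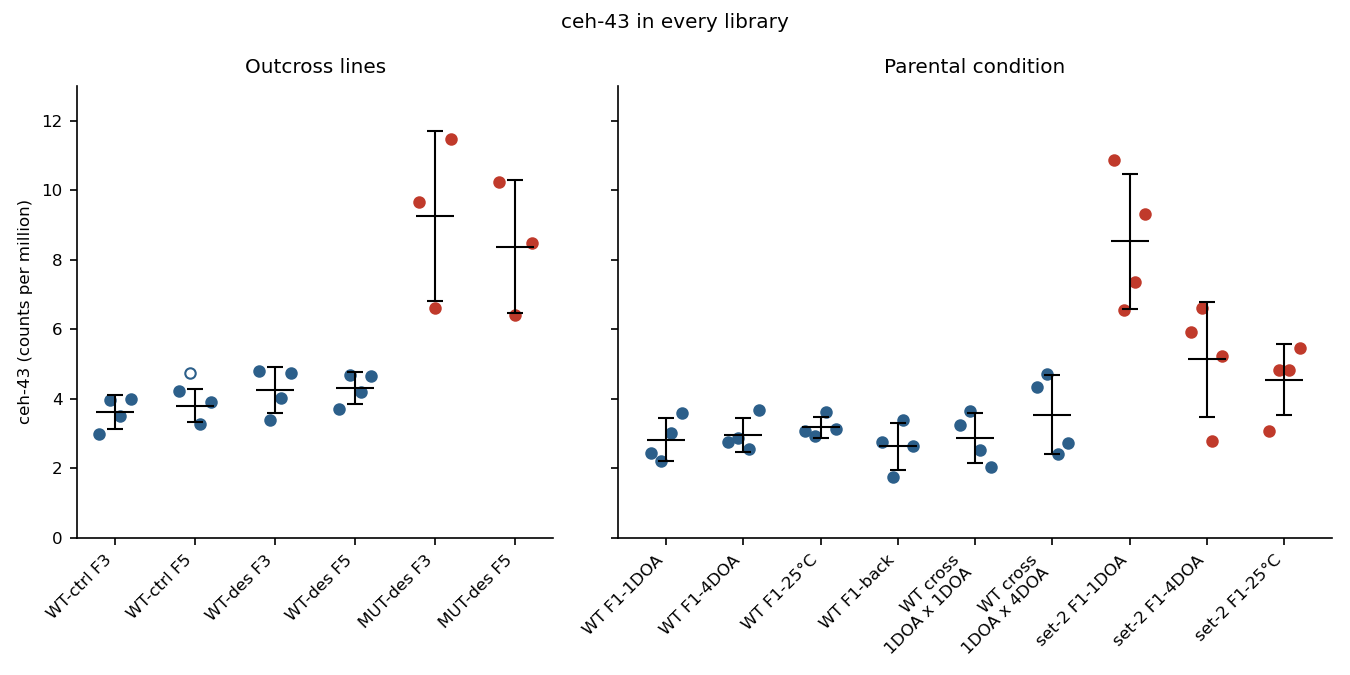
Level of ceh-43 in CPM (y axis) in each library (points) of the 15 groups (x axis), with set-2 mutant groups in red and wild-type groups in blue; black bars are the group mean and ± 1 SD, and the open circle is WT-ctrl F5 replicate 2, which was left out. Every MUT-des library lay at or above 6.40 CPM and every WT-ctrl and WT-des library at or below 4.80 CPM, and among the parental-condition groups the highest mean was that of set-2 1DOA, at 8.53 CPM.

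Averaged over 1DOA, F1-4DOA and F1-25°C with equal weight, ceh-43 rose in set-2(zr1208) with a log2 fold change of 0.98 (95% interval 0.69 to 1.27, standard error 0.14), a 1.97-fold higher level (edgeR adjusted p = 8.705e-06). The set-2 genotype was accompanied by wide changes, and 31.8% of the 15306 entries tested passed an adjusted p under 0.05 in this comparison, while 14.3% passed as higher in the mutant. In order of p-value ceh-43 stood at place 169. A test that borrows no spread from other genes, which permuted the genotype among the libraries of each condition, gave a mean difference of 0.91 on the log2 CPM scale (exact permutation test over 343000 assignments, two-sided p = 8.16e-05). Within single conditions the same exact permutation test gave a two-sided p of 0.0286 in 1DOA, the smallest that 4 against 4 libraries allow, and 0.0857 in both F1-4DOA and F1-25°C. Leaving out any 1 of the 24 libraries kept the log2 fold change between 0.96 and 1.07.

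The difference was widest in the progeny of young mothers. In WT 1DOA the libraries read 2.44, 2.21, 3.02 and 3.59 CPM, with a mean of 2.82 ± 0.620 CPM (SD, n = 4). In set-2 1DOA they read 10.9, 6.55, 7.36 and 9.31 CPM, with a mean of 8.53 ± 1.95 CPM (n = 4). Every mutant library lay above every WT library, which was so for 7.57% of all entries tested. The level was 2.98-fold higher, which on the log2 scale is 1.57 with a standard error of 0.25 (edgeR adjusted p = 0.000189), in a comparison where 11.9% of entries passed.

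In the progeny of 4-day-old mothers the WT libraries read 2.74, 2.86, 2.56 and 3.66 CPM and the set-2 libraries 5.92, 6.60, 2.78 and 5.23 CPM. The groups overlapped, because set-2 F1-4DOA replicate 3 lay within the WT range. That library had a 95% counting interval of 1.20 to 5.48 CPM, wide enough to hold all 4 WT values. ceh-43 was 1.82-fold higher in set-2, a log2 fold change of 0.86 with a standard error of 0.25 (edgeR adjusted p = 0.0244), where 10.1% of entries passed. Without replicate 3 the log2 fold change was 1.02 (edgeR adjusted p = 0.0124). The call was lost without WT F1-4DOA replicate 2 (0.85, edgeR adjusted p = 0.0612) or replicate 3 (0.80, 0.0809 by edgeR), without set-2 F1-4DOA replicate 1 (0.81, 0.0708 by edgeR), and in a fit of only these 2 groups (0.86, 0.101 by edgeR).

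At 25°C the WT libraries read 3.06, 2.93, 3.62 and 3.12 CPM and the set-2 libraries 3.08, 4.83, 4.82 and 5.46 CPM. The groups overlapped, with set-2 F1-25°C replicate 1 inside the WT range and the other 3 mutant libraries above it. The log2 fold change was 0.50 (95% interval −0.0035 to 1.01, edgeR adjusted p = 0.155) and did not pass, in a comparison where 18.2% of entries did. The interval reaches from no difference to a 2.02-fold higher level.

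Within the mutant, ceh-43 was lower at 25°C and in the progeny of old mothers than in the progeny of young mothers. Every set-2 F1-25°C library, at most 5.46 CPM, lay below every set-2 1DOA library, at least 6.55 CPM, an order that 4.39% of entries showed. Its fitted log2 difference was −0.91, with a standard error of 0.24 (edgeR adjusted p = 0.0170), and 8.03% of entries passed, 3.29% of all as lower. Between set-2 F1-4DOA and set-2 1DOA it was −0.66, with the same standard error (edgeR adjusted p = 0.0427), where 22.5% of entries passed, 12.6% of all as lower, and the groups touched, with 6.60 CPM as the highest F1-4DOA library and 6.55 CPM as the lowest 1DOA library. Both calls depended on single libraries. The temperature call was lost without set-2 1DOA replicate 1 or 4 or set-2 F1-25°C replicate 1 (edgeR adjusted p = 0.0566, 0.0596 and 0.0713), and the age call without set-2 1DOA replicate 1 or 4 or set-2 F1-4DOA replicate 1, 3 or 4 (edgeR adjusted p = 0.0755, 0.0560, 0.0693, 0.0882 and 0.0919). In fits of only the 2 groups compared, neither passed (edgeR adjusted p = 0.145 for temperature and 0.128 for age). The set-2 1DOA libraries serve as the reference of both comparisons.

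In WT no such difference was found. Between WT F1-4DOA and WT 1DOA the log2 fold change of ceh-43 was 0.04 (95% interval −0.48 to 0.57, edgeR adjusted p = 0.972), and between WT F1-25°C and WT 1DOA it was 0.16 (95% interval −0.37 to 0.68, edgeR adjusted p = 0.820). In these comparisons 3.59% and 8.25% of entries passed. As folds of the WT 1DOA level the intervals run from 0.715 to 1.49 and from 0.775 to 1.60. The difference between genotypes in the response to temperature, taken as an interaction term, was −1.07 on the log2 scale (standard error 0.35, unadjusted p = 0.00456, edgeR adjusted p = 0.0824), and that in the response to maternal age was −0.71 (standard error 0.35, edgeR adjusted p = 0.243). Neither passed, with 3.41% and 1.31% of entries passing in the 2 terms. The temperature term did pass without set-2 1DOA replicate 2 (−1.18, edgeR adjusted p = 0.0473) and with library totals in place of TMM (−1.25, edgeR adjusted p = 0.0435).

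Return to 20°C and mating did not move ceh-43 beyond its spread. WT F1-back libraries read 2.75, 1.73, 3.40 and 2.63 CPM, and the log2 fold change was −0.12 against WT 1DOA (95% interval −0.65 to 0.41, edgeR adjusted p = 0.902) and −0.28 against WT F1-25°C (95% interval −0.80 to 0.25, edgeR adjusted p = 0.486), where 0.751% and 18.7% of entries passed. Cross-progeny of young parents read 3.25, 3.65, 2.54 and 2.05 CPM. Cross-progeny of young males and 4-day-old hermaphrodites split into replicates 1 and 2 at 4.33 and 4.71 CPM, and replicates 3 and 4 at 2.41 and 2.73 CPM. The hermaphrodite's age gave a log2 fold change of 0.25 in the crosses (95% interval −0.28 to 0.78, edgeR adjusted p = 0.911), where 0.0784% of entries passed. Cross-progeny differed from self-progeny of mothers of the same age by 0.02 for young and 0.22 for old hermaphrodites (edgeR adjusted p = 0.979 and 0.672, with 4.59% and 5.96% of entries passing), and the interaction of mating with age was 0.21 (edgeR adjusted p = 0.967, with 0.608% passing). The 4 WT 1DOA libraries are the reference of the age, temperature, return and young-cross comparisons, which are therefore not independent.

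Ordered by mean level, the parental-condition groups ran from WT F1-back (2.63 CPM) through WT 1DOA (2.82), the young cross (2.87), WT F1-4DOA (2.96), WT F1-25°C (3.18) and the old-hermaphrodite cross (3.54) to set-2 F1-25°C (4.55), set-2 F1-4DOA (5.13) and set-2 1DOA (8.53). Each group overlapped in range with the next in this order. In the outcross lines the order was WT-ctrl F3, WT-ctrl F5, WT-des F3, WT-des F5, MUT-des F5 and MUT-des F3, and the one break without overlap lay between WT-des F5 and MUT-des F5.

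In the outcross lines, on which the gene was chosen, the level was higher in MUT-des than in WT-ctrl and WT-des. WT-ctrl read 2.98, 3.98, 3.51 and 3.99 CPM at F3 and 4.23, 3.28 and 3.90 CPM at F5. WT-des read 4.80, 3.40, 4.02 and 4.74 CPM at F3 and 3.70, 4.69, 4.20 and 4.65 CPM at F5. MUT-des read 9.67, 6.62 and 11.5 CPM at F3 and 10.2, 6.40 and 8.48 CPM at F5. All 6 MUT-des libraries lay above all 15 WT-ctrl and WT-des libraries. Since the gene was chosen on MUT-des against WT-ctrl, this order is a description, and for the same reason nothing is read from the 0.208% of entries whose MUT-des libraries all lay above WT-ctrl or the 0.17% that did so against WT-des.

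Over F3 and F5 the mean was 8.81 ± 2.03 CPM (SD, n = 6) in MUT-des, 3.69 ± 0.450 CPM (n = 7) in WT-ctrl and 4.28 ± 0.532 CPM (n = 8) in WT-des. MUT-des lay above WT-ctrl by 1.36 (standard error 0.21) at F3 and 1.14 (standard error 0.23) at F5 on the log2 scale, and from WT-des over both generations by 1.04 (standard error 0.15). WT-des lines, which descend from set-2 hermaphrodites but carry the wild-type allele, differed from WT-ctrl by 0.21 (standard error 0.15, 95% interval −0.10 to 0.51), and the groups overlapped at F3 and at F5. Per-library scatter in MUT-des exceeded counting error, with a coefficient of variation of 26.5% at F3 and 22.9% at F5 against 7.45% and 7.12% from counting alone. In WT-ctrl it was 13.3% and 12.7% against 12.2% and 12.6%, so the scatter there was about that of counting.

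The generation contrasts within a lineage were not part of the choice and were tested. Those of WT-ctrl and MUT-des use the libraries of that choice, so their p-values are not free of it. From F3 to F5 the WT-ctrl lines gave a ceh-43 log2 fold change of 0.07 (95% interval −0.38 to 0.52, edgeR adjusted p = 0.9999), the WT-des lines 0.02 (−0.39 to 0.43, edgeR adjusted p = 0.976) and the MUT-des lines −0.15 (−0.61 to 0.31, edgeR adjusted p = 0.778). None passed, and few entries did in any lineage, the shares being 0% for WT-ctrl, 0.0063% for WT-des and 0.139% for MUT-des, with 875, 1801 and 2990 entries at an unadjusted p under 0.05 and 27, 261 and 761 passing by DESeq2. Whether a line sampled at F5 had also been sampled at F3 is not given in the sources used here.

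**Figure D2:**
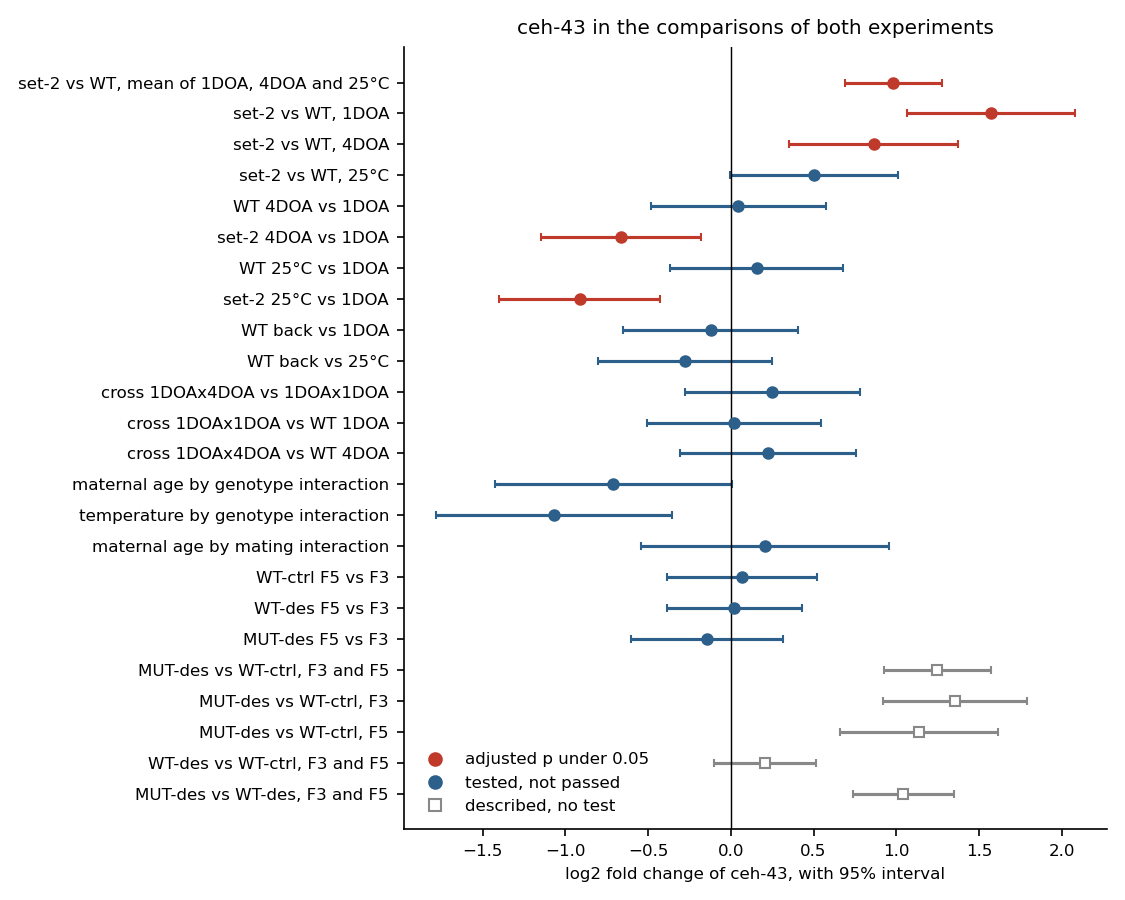
Log2 fold change of ceh-43 (x axis) with its 95% interval in the 19 tested and 5 described comparisons (y axis); red points passed an adjusted p under 0.05, blue points were tested and did not pass, and open grey squares are described without a test. The set-2 against WT comparisons lie to the right of 0, from 1.57 in 1DOA to 0.50 at 25°C, the comparisons within WT lie near 0, and set-2 F1-25°C and F1-4DOA lie below set-2 1DOA at −0.91 and −0.66.

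No partner factor of CEH-43 passed where ceh-43 did. ast-1, which encodes the ETS factor, stood at −0.08 on the log2 scale (standard error 0.19, edgeR adjusted p = 0.788) in set-2 against WT over the 3 conditions, and the 3 Pbx genes were ceh-20 at 0.18 (standard error 0.08, edgeR adjusted p = 0.0790), ceh-60 at −0.14 (standard error 0.09, edgeR adjusted p = 0.258) and ceh-40, which had too few counts for a test there. Of the 6 listed factors 3 were tested in this comparison and 0 passed, against 31.8% of all entries. The Meis gene unc-62 held 0 counts in every library, and the Pax6 gene vab-3 held at most 11. vab-3 has 2 further entries named by transcript, with up to 35 counts, so its own row does not show its level. The 4 such entries matched to unc-62 held 0 counts as well, so no level of unc-62 was read. No entry named by transcript was matched to ceh-43, although only 2863 of the 3837 such entries could be matched to a gene. Of 4 factors tested in MUT-des against WT-ctrl 0 passed, where 0.296% of entries did.

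The dopamine pathway genes, which CEH-43 is known to switch on, did not pass in that comparison either. Of 5 tested, 0 passed in set-2 against WT over the 3 conditions, where 31.8% of all entries did, with a median log2 fold change of 0.02 against −0.03 over all entries. The log2 fold changes were 0.02 for cat-1, the vesicular monoamine transporter, −0.11 for cat-2, the tyrosine hydroxylase, −0.06 for cat-4, the GTP cyclohydrolase that makes its cofactor, 0.13 for bas-1, the aromatic amino acid decarboxylase, and 0.06 for dat-1, the dopamine reuptake transporter. ptps-1, another cofactor gene, held 0 counts in its row. Again 0 of the 5 passed in MUT-des against WT-ctrl, where 0.296% of all entries did, with log2 fold changes between −0.30 for cat-1 and 0.05 for cat-4.

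Between single conditions 2 of the 5 tested genes passed. Of all entries, 11.9% passed in set-2 against WT in 1DOA and 10.1% in F1-4DOA. For maternal age 3.59% passed in WT and 22.5% in set-2, and 1.31% passed for age by genotype. cat-4 was higher in set-2 1DOA, with 81.2 ± 8.49 CPM against 56.8 ± 5.57 CPM in WT 1DOA (SD, n = 4 each), a log2 difference of 0.52 with a standard error of 0.17 (edgeR adjusted p = 0.0412). In WT it rose with maternal age, to 104.9 ± 22.1 CPM in F1-4DOA (log2 fold change 0.89, edgeR adjusted p = 0.00247), and there it was lower in set-2, at 66.8 ± 15.7 CPM (log2 fold change −0.65, edgeR adjusted p = 0.0123, in a comparison where 6.73% of all entries passed as lower). The genotype difference of cat-4 thus had opposite signs at the 2 maternal ages (interaction −1.17, edgeR adjusted p = 0.0111), whereas ceh-43 was higher in set-2 at both. bas-1 was higher in set-2 F1-4DOA than in set-2 1DOA, at 68.5 ± 10.9 against 43.9 ± 8.28 CPM (log2 fold change 0.64, edgeR adjusted p = 0.00646), the opposite direction to ceh-43. cat-4 and bas-1 also work in serotonergic neurons, and cat-4 makes a cofactor used outside neurons.

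Of the dopamine receptor genes, dop-2, dop-3, dop-4, dop-5 and dop-6 were tested and 0 passed in set-2 against WT over the 3 conditions, against 31.8% of all entries, with log2 fold changes from −0.34 for dop-5 to 0.05 for dop-3. dop-1 was not tested. None of these 5 passed in MUT-des against WT-ctrl, where 0.296% of all entries did, with values from −0.38 for dop-4 to 0.10 for dop-2. dop-4 was lower in WT at 25°C than in WT 1DOA, its log2 difference being −1.20 with a standard error of 0.30 (edgeR adjusted p = 0.00857).

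Few other genes of the homeobox list followed ceh-43. The list was every gene named ceh and other named genes, and it includes some without a homeobox. Of 68 others tested, 4 rose and 5 fell in set-2 against WT over the 3 conditions. That is 13.2%, against 31.8% of all entries. The 4 that rose were ceh-62 (log2 fold change 0.59, edgeR adjusted p = 2.487e-06), the Hox gene ceh-13 (0.37, 0.00592 by edgeR), ceh-74 (0.42, 0.0112 by edgeR) and ceh-23 (1.29, 0.0208 by edgeR). ceh-23, a neuronal homeobox gene, averaged between 0.349 and 1.73 CPM in the 6 groups compared. The 4 with the smallest p that fell were pal-1, the caudal homolog (−0.50, edgeR adjusted p = 0.000426), ceh-91 (−0.29, 0.0142 by edgeR), the ONECUT gene ceh-38 (−0.49, 0.0151 by edgeR) and the LIM homeobox gene ceh-14 (−0.56, 0.0157 by edgeR). In log2 fold change, ceh-43 at 0.98 stood after ceh-23. Among 77 others of the homeobox list tested in MUT-des against WT-ctrl 0 passed, where 0.296% of all entries did. There ceh-62 was at 0.13 (standard error 0.23) and ceh-23 at −1.04 (standard error 0.68).

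**Figure D3:**
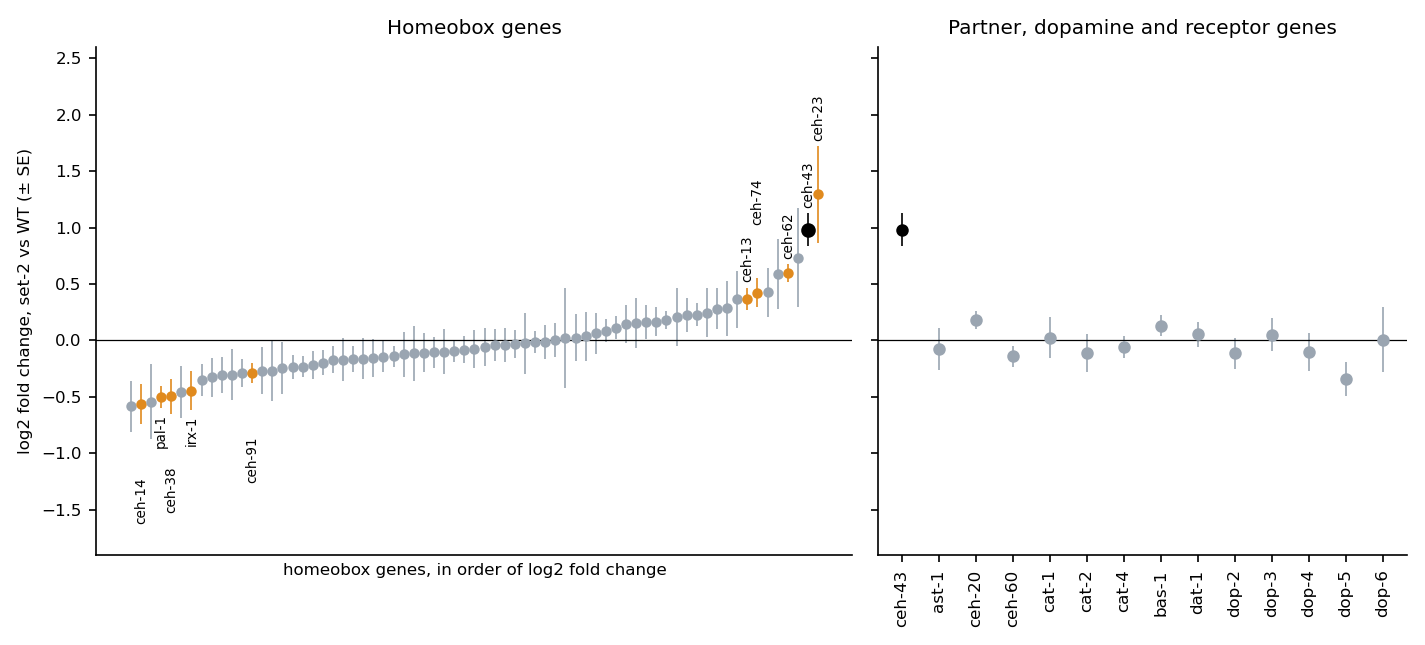
Log2 fold change (y axis, ± standard error) in set-2 against WT over the 3 conditions. Genes of the homeobox list, ordered by value, are on the left, and the partner, dopamine pathway and dopamine receptor genes on the right. ceh-43 is black, other genes that passed an adjusted p under 0.05 are orange and the rest are grey. ceh-43, at 0.98, lies near the top of the homeobox list, and the 13 partner, pathway and receptor genes tested lie between −0.34 and 0.18.

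Markers of the tissues in which ceh-43 is known to act were compared as well. Of 12 epidermal regulators and markers tested, 0 rose and 1 fell in set-2 over the 3 conditions, against 14.3% and 17.5% of all entries. In 1DOA 0 of the 12 passed, against 11.9% of all entries. The summed level of the 17 listed epidermal genes with an entry ran from 1014 to 1645 CPM in set-2 and from 1683 to 2244 CPM in WT. These sums were lower in the mutant without overlap. For single entries, an unlike measure, this was so in 7.78%. In the other conditions the sums overlapped, from 1468 to 2320 CPM in set-2 and from 736 to 2094 CPM in WT in F1-4DOA, and from 1208 to 1780 CPM and from 1137 to 1603 CPM at 25°C. The row of the epidermal GATA gene elt-3 held 0 counts in every library, so no level of elt-3 was read. Whether it has further entries named by transcript was not checked. Of 11 pan-neuronal genes tested 0 rose and 2 fell, 18.2% of them, near the 17.5% of all entries that passed as lower. The sum of all 14 listed pan-neuronal genes in 1DOA ran from 255 to 391 CPM in set-2 and from 353 to 393 CPM in WT. MUT-des against WT-ctrl gave 0 of the 12 and 0 of the 11, where 0.296% of all entries passed.

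Other tissue lists moved between the same groups. Over the 3 conditions 5 of 5 vitellogenins, 17 of 19 oocyte and eggshell genes, 6 of 9 intestine genes and 7 of 9 muscle genes fell in set-2, and 0 in these lists rose, while 17.5% of all entries passed as lower. Against 31.8% of all entries, the share that passed was smaller among sperm genes (1 of 34 rose and 4 fell), molting genes (3 of 18 rose and 0 fell), genes of the H3K4 methylation machinery (0 of 15 rose and 4 fell) and male-enriched genes (0 of 4). In 1DOA, where the ceh-43 difference was widest, 4 of 9 muscle genes fell in set-2 against 5.8% of all entries. The summed level of all 12 listed muscle genes ran from 8370 to 10911 CPM in set-2 and from 11648 to 13169 CPM in WT. The sums did not overlap. For single entries, an unlike measure, 7.78% were lower in set-2 without overlap. In 1DOA 0 of 5 vitellogenins passed, against 11.9% of all entries, and 1 of 19 oocyte and eggshell genes rose, against 6.09%. The summed vitellogenin level there ran from 2280 to 7586 CPM in set-2 and from 1625 to 6358 CPM in WT. In F1-4DOA it ran from 2120 to 8979 CPM in set-2 and from 16440 to 26775 CPM in WT, and at 25°C from 1665 to 2799 CPM and from 4912 to 13046 CPM. Within set-2, 31 of 34 sperm genes and 13 of 19 oocyte and eggshell genes were lower in F1-4DOA than in 1DOA, against 12.6% of all entries. In the same comparison 5 of 11 pan-neuronal genes, 3 of 15 H3K4 machinery genes and 2 of 9 muscle genes were higher, against 9.89% of all entries, the opposite direction to ceh-43. At 25°C, against 1DOA, 2 of 5 vitellogenins, 2 of 15 H3K4 machinery genes and 1 of 19 oocyte and eggshell genes were lower. So were 2 of 34 sperm genes and 1 of 18 molting genes, where 3.29% of all entries were. In that comparison 1 of 11 pan-neuronal, 2 of 9 muscle, 1 of 15 H3K4 machinery and 1 of 34 sperm genes were higher, where 4.74% of all entries were. The part of these shifts in the ceh-43 values was not tested. None of these lists had a gene that passed in MUT-des against WT-ctrl, where 0.296% of all entries did.

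ceh-43 lies on the same chromosome as set-2, chromosome III, with 192 annotated genes between them in the WBcel235 annotation, 132 of them protein coding. Animals homozygous for set-2(zr1208) also carry the chromosome III sequence linked to it, so the allele and the linked sequence cannot be told apart as the source of the ceh-43 level. In that interval 22 genes were higher and 16 lower in set-2 over the 3 conditions, 36.5% of those tested against 31.8% of all entries. In MUT-des against WT-ctrl 0 of 106 passed, where 0.296% of all entries did. Of the 5 nearest tested genes on each side of ceh-43, 1 rose and 5 fell in set-2, against 14.3% and 17.5% of all entries. The insulin-like gene ins-17 rose by 0.24 (edgeR adjusted p = 0.0391), and the eggshell gene cpg-1 fell by 1.06 on the log2 scale (edgeR adjusted p = 2.806e-05). ndg-4, the next tested gene towards set-2, was at −0.50 (edgeR adjusted p = 0.00140), and the annexin gene nex-3, the next on the other side, was at 0.26 (edgeR adjusted p = 0.195). C28A5.2, C28A5.1 and C28A5.6 were at −0.37, −0.27 and −0.20 (edgeR adjusted p = 0.00133, 0.0110 and 0.0171). Those that did not pass included F56F3.4, cku-80, which encodes a Ku DNA repair protein, and ifet-1, which encodes a translational repressor, at 0.16, −0.01 and −0.25.

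The entries whose group means were most like those of ceh-43 were sought among 15128 entries, by Pearson correlation of log2 CPM over the 15 groups, centred in each experiment. They were F39F10.3 (r = 0.926), Y54G2A.44 (0.911), ppt-1, which encodes a palmitoyl-protein thioesterase (0.901), the histone gene his-6 (0.901) and F42A6.6 (0.899), and the 99th percentile over all entries was 0.723. The 15 group means include those on which ceh-43 was chosen, so these correlations describe a likeness and are not a test. F39F10.3 averaged 9.29 ± 2.45 CPM in set-2 1DOA against 2.11 ± 0.792 CPM in WT 1DOA (SD, n = 4 each), and 4.14 ± 2.05 and 5.80 ± 0.568 CPM in set-2 F1-4DOA and F1-25°C. Like ceh-43 it was highest in set-2 1DOA among the parental-condition groups. It led the list also over the 57 libraries (r = 0.772), whereas by Spearman's correlation over the groups F08G5.3 came first (0.971) and F39F10.3 was at place 12. his-6 has near-identical copies between which reads may be split or shared, so its values are uncertain.

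**Figure D4:**
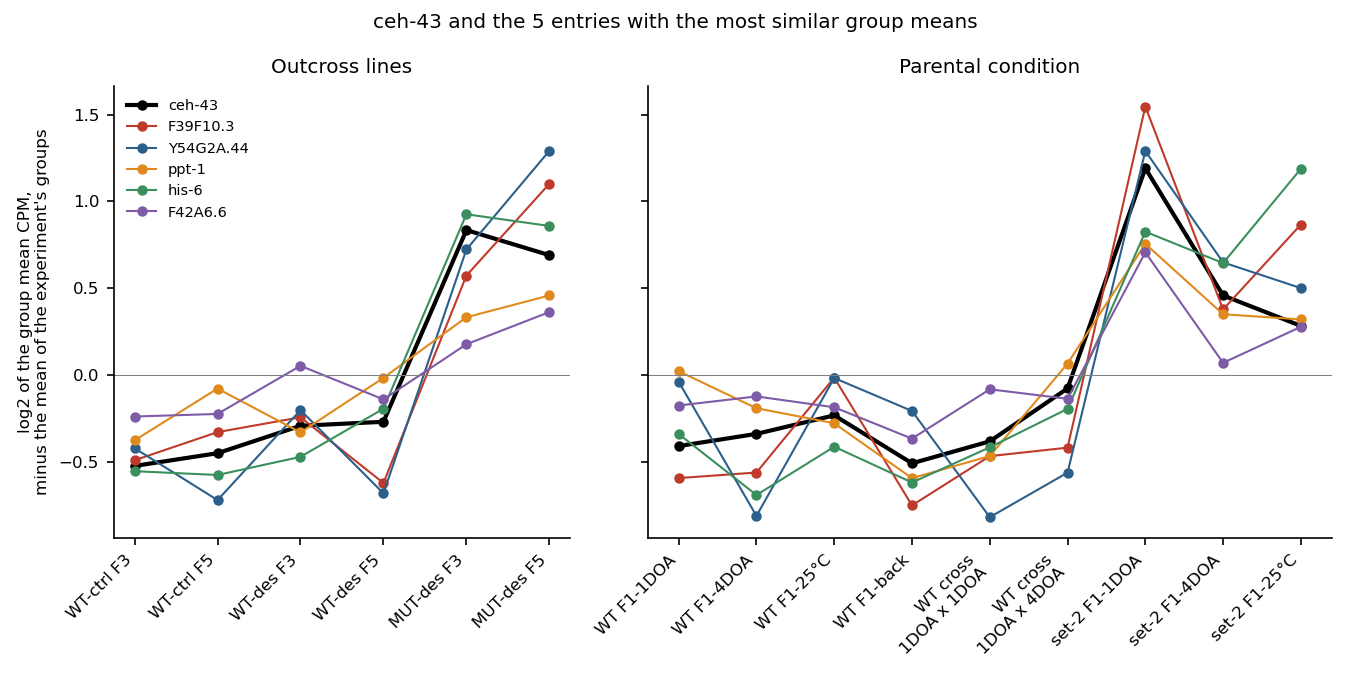
Log2 of the group mean CPM, minus the mean of the same over the groups of that experiment (y axis), for ceh-43 (black) and the 5 entries with the highest Pearson correlation with it, in the 6 outcross groups (left) and the 9 parental-condition groups (right). All 6 lines step up in the MUT-des groups and peak in set-2 1DOA except that of his-6, which is highest in set-2 F1-25°C.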

How the data were processed

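RNA-seq of whole mid-L4 animals was analysed in 58 libraries of 15 groups. The authors checked reads with FastQC, trimmed them with Trimmomatic, aligned them to WS220 (ce10 in the labels) with RNA STAR and assigned them with htseq-count, and the deposited values are raw counts per gene. The kit used gives reads without strand information, and the overlap mode of the counting is not given in the sources used here.

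Counts were fitted per experiment with edgeR 4.0.16, which calls limma 3.58.1, under R 4.3.3, with TMM factors, the default filter on low counts, robust dispersion and the quasi-likelihood test, over 15872 outcross entries (21 libraries, without WT-ctrl F5 replicate 2) and 15306 others (36 libraries). An entry passed at a Benjamini-Hochberg adjusted p under 0.05. Log2 CPM used a prior count of 2. The single-gene permutation test was exact. The method was tested on simulated data. The gene, the lists and the tests were chosen with earlier results of these data known. The lists were CEH-43 partner factors, dopamine pathway, dopamine receptors, epidermal, homeobox, H3K4 methylation machinery, pan-neuronal, vitellogenins, oocyte and eggshell, sperm, molting, intestine, muscle and male-enriched. Named were ceh-43, set-2, the members of the first 3 lists, the 5 nearest tested genes on each side, the 5 most similar entries, and up to 4 homeobox genes in each direction. Spearman's first entry, F08G5.3, and elt-3 were named after their values were seen. Neighbour order came from RefSeq, in which 41020 of 46926 genes matched an entry. No 2 replicates of a group agreed within counting noise (84 pairs, lowest chi-square per degree of freedom 5.15). Alternatives were RLE factors, library totals, no filter, a mean of at least 50 counts, DESeq2 1.42.0, only the groups compared, a replicate block, no robust dispersion, all 22 outcross libraries, other prior counts, and each library left out.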

Additional observations from a re-analysis of the deposited data

How the results depend on the processing

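Among the alternative values of the tested ceh-43 comparisons, 300 kept direction and side of the threshold, 16 lost the call, 2 gained it and 26 changed sign, all of the last in comparisons that did not pass. The 100 alternative values of the described comparisons kept their sign and moved by less than 1 standard error. RLE factors, DESeq2 and the fit without robust dispersion changed no call and no sign, nor did prior counts of 0.5 and 5 in the permutation test. With library totals the log2 fold change was −0.692 between set-2 F1-4DOA and set-2 1DOA (edgeR adjusted p = 0.0515, no longer passing), −1.249 for temperature by genotype (now passing), −0.04003 for WT F1-4DOA against 1DOA, and −0.01228 and −0.1305 for F5 against F3 in WT-ctrl and WT-des. Totals moved the median of all entries by more than 0.1 in 3 of 24 comparisons, by −0.17 in set-2 against WT at 25°C, −0.17 in temperature by genotype and −0.15 in WT-des F5 against F3. Without a filter the set-2 age comparison was −0.668 (edgeR adjusted p = 0.0852). Under the filter at a mean of 50 counts, the young cross against WT 1DOA was −0.00141 and WT-des F5 against F3 −0.003099. In fits of only the groups compared, set-2 against WT in F1-4DOA was 0.862, set-2 F1-4DOA against 1DOA −0.7275 and set-2 F1-25°C against 1DOA −0.8955, none passing, and WT-des F5 against F3 was −0.02032. Fewer libraries inform the spread in such fits. With all 22 outcross libraries WT-des F5 against F3 was −0.0167. The cause was not tested for any of these changes.

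With the replicate number as a block, set-2 against WT over the 3 conditions was 0.9752 (edgeR adjusted p = 2.379e-05) and WT-ctrl F5 against F3 was −0.001658. No other call or sign changed under the block. Deviations of same-numbered samples of different groups had a median correlation of −0.00718 (43 of 144 pairs above 0.1) in the parental-condition experiment. In the outcross lines it was 0.0384 (20 of 46). For samples with different numbers the medians were −0.00534 and −0.0165. A median pooled over all groups cannot show whether single lines were paired across generations. The numbers were not taken as pairing.

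Leaving out 1 library at a time gave 0.7893 to 1.04 for set-2 against WT in F1-4DOA, −0.8072 to −0.5493 for set-2 F1-4DOA against 1DOA, −1.023 to −0.7651 for set-2 F1-25°C against 1DOA and −1.176 to −0.8817 for temperature by genotype. It gave −0.1525 to 0.1473 for WT F1-4DOA, −0.2806 to 0.05588 for F1-back and −0.1446 to 0.1524 for the young cross, each against WT 1DOA, and −0.01325 to 0.1655, −0.06808 to 0.08894 and −0.3357 to 0.04199 for F5 against F3 in WT-ctrl, WT-des and MUT-des.

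The share of all entries that passed, printed beside ceh-43, moved more than the ceh-43 values. In fits of only the groups compared, 66 entries passed in place of 1819 in 1DOA, 319 in place of 1543 in F1-4DOA, 1117 in place of 2781 at 25°C, 663 in place of 3447 for set-2 age and 98 in place of 1229 for set-2 temperature. Without a filter 920 passed in 1DOA and 775 for set-2 temperature. In MUT-des against WT-ctrl 124 passed by DESeq2 and 31 with a mean of at least 50 counts, in place of 47. Over the alternatives the count ran from 331 to 797 for temperature by genotype (522), 46 to 610 for age by genotype (200), 60 to 935 for F1-back against WT 1DOA (115), 5 to 40 for hermaphrodite age in the crosses (12), 392 to 1213 for the young cross against WT 1DOA (702), 48 to 268 for age by mating (93), with 48 under the block, and 0 to 761 for MUT-des F5 against F3 (22), with the count as reported in brackets. WT at 25°C against 1DOA had 840 under the stricter filter (1262). Depth limits ceh-43 most in set-2 F1-4DOA replicate 3, with 8 counts.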
